A study of Mus musculus with 6 samples.

Results

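The NMDA receptor subunit genes are the 7 mouse genes Grin1, Grin2a, Grin2b, Grin2c, Grin2d, Grin3a and Grin3b, taken by name from the 55487 genes in the count tables. All 7 were found and all 7 passed the filter on low counts. They were read in the cerebella of 14-day-old male mice, with 3 homozygous Galnt17 knockouts (KO; labelled Wbscr17KOKO after the older gene name, allele Galnt17tm1.1(KOMP)Vlcg) and 3 wild types of the B6C3 stock (WT), 1 animal a library. Galnt17 encodes an enzyme of the family that starts mucin-type O-glycosylation. The KO line began on C57BL/6J and was crossed to C57BL/6J X C3H/He F1 hybrids because homozygous pups were not born live on C57BL/6. The labels give neither litters nor parents, so the genotype and any difference in the mix of C57BL/6J and C3H/He alleles between the groups cannot be told apart.

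NMDA receptors are glutamate-gated ion channels that open only when glutamate and a co-agonist, glycine or D-serine, are bound and the membrane is depolarised enough to expel magnesium from the pore. Each receptor holds the obligatory GluN1 subunit (Grin1), which binds the co-agonist, together with GluN2 subunits (Grin2a to Grin2d), which bind glutamate and set the channel's kinetics, or GluN3 subunits (Grin3a, Grin3b), which also bind glycine and lower calcium entry. In the postnatal cerebellum, granule cells lose GluN2B and gain GluN2C as they settle in the internal granular layer and receive mossy fibre synapses, a change often called the GluN2B to GluN2C switch.

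A stretch of coding sequence for the pore, shown for Grin1, Grin2c and both GluN3 genes, lets the likeness of the subunit genes be seen, which bears on whether reads could be assigned to the wrong one. Each line gives 54 bases, 5′ to 3′ on the coding strand, read from the GENCODE transcript with the longest coding sequence (GRCm38). Capitals mark the 21 bases for 7 residues at the gate of the pore, in the third membrane segment, that are the same in these 4 proteins.
Grin1: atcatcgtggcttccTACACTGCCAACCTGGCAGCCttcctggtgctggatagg
Grin2c: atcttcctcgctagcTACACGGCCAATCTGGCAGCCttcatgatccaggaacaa
Grin3a: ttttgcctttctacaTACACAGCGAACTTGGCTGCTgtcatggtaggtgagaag
Grin3b: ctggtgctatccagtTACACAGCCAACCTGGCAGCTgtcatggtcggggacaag

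Each stretch lies within 1 coding exon: Grin1 at chr2:25297184-25297237 (minus strand, exon 15), Grin2c at chr11:115253734-115253787 (minus, exon 11), Grin3a at chr4:49770455-49770508 (minus, exon 3) and Grin3b at chr10:79974624-79974677 (plus, exon 3). Within the 54 bases, Grin1 and Grin2c had the same base at 39 positions, as did Grin3a and Grin3b. Grin2c matched Grin3a at 32 positions and Grin3b at 36. Over whole protein-coding transcripts, the longest run of identical bases in any of the 21 pairs of members was 34, between Grin2b and Grin2c. Reads were 150 bases long and sequenced in pairs, so no pair of subunits held an identical stretch as long as 1 read.

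Counts of reads in genes totalled 17111611 to 29840046 per library. Galnt17 itself was counted 63 to 80 times in each KO library and 729 to 1119 times in each WT library, which fits the labels. The cerebellar identity of the tissue was plain from its markers, such as Gabra6 at 542 to 734 CPM (read counts scaled to library size with TMM factors) and 8 granule cell markers that summed to 4322 to 4849 CPM. WT replicate 3 stood apart: 10 brainstem and midbrain markers summed to 27.2 CPM there and to 6.17 to 7.05 CPM in the other 5 libraries. Within that list the serotonin transporter gene Slc6a4 had 159 counts in WT replicate 3 and 0 to 3 elsewhere. Nrgn and Tcf7l2, named after their values were seen, were at 108 and 36.9 CPM there against at most 11.5 and 7.37 CPM in the others. Choroid plexus markers summed to 212 to 768 CPM in KO and 1603 to 2900 CPM in WT, and 8 of these 10 genes fell in KO. The part of these differences in tissue content in the values below was not tested. In whole tissue, fewer cells of a type and less RNA per cell cannot be told apart.

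At day 14 Grin2c dominated the GluN2 genes in all 6 animals. Levels of different genes are compared here as CPM per kilobase of merged exons. On that scale Grin2c stood at 57.6 to 71.5 over the 6 libraries and Grin1 at 16.5 to 19.8. Grin2d at 3.59 to 4.43 and Grin3a at 3.37 to 4.43 overlapped and were followed by Grin2b at 2.66 to 3.06, Grin2a at 1.76 to 2.33 and Grin3b at 0.326 to 0.569. Apart from Grin2d and Grin3a, neighbours in this order did not overlap in any library.

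**Figure D1:**
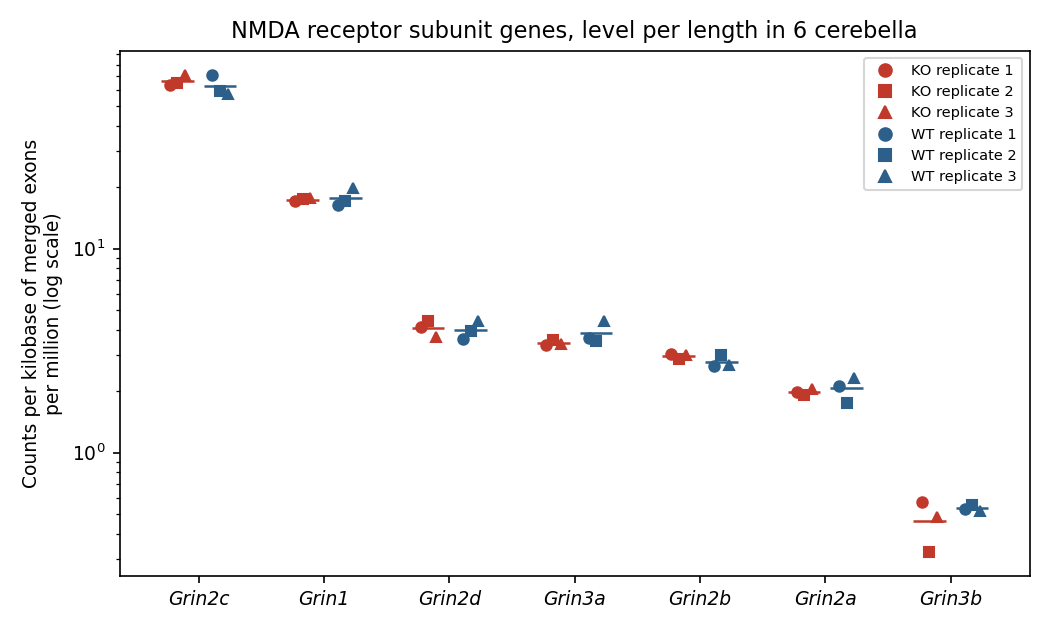
Level of each NMDA receptor subunit gene in CPM per kilobase of merged exons (log axis), ordered by mean; symbols are single libraries and bars are group means. Grin2c lies highest at 57.6 to 71.5 and Grin3b lowest at 0.326 to 0.569, and KO and WT symbols overlap for every gene.

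The levels of Grin1, Grin3a and Grin3b moved most with how genes were counted, while Grin1 stayed second to Grin2c on every scale. The merged exons of Grin1 span 9.70 kb, against 4.28 kb for its longest coding transcript, and on the shorter length its level was 37.4 to 45.0. Part of Grin1 (13.5% of its exon bases) overlaps the antisense gene Grin1os, and the sum of the strand columns, which keeps reads in such overlaps, held 1.69 to 1.76 times the Grin1 reads of the unstranded column. Grin3a, with 7.49 kb in its longest coding transcript against 12.3 kb of merged exons, stood above Grin2d on the shorter length, at 5.53 to 7.25 against 4.3998 to 5.43. For Grin3b the strand columns held 6.46 to 11.5 times as many reads, and 32.1% of its exon bases overlap Tmem259 on the other strand, a gene at 152 to 163 CPM. Since these libraries do not keep strand, reads in the overlaps cannot be assigned to either gene. The reads of Grin2a were the same by both counts, those of Grin3a differed in 1 library by 1 read, and the factor was 1.01 to 1.02 for Grin2b, 1.06 to 1.07 for Grin2c and 1.19 to 1.27 for Grin2d.

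Among the 4 GluN2 genes, Grin2c made up 87.4%, 87.6% and 89.0% of their summed level per kilobase in the KO animals (replicates 1 to 3 in order, as in all lists of values here). In the WT animals the shares were 89.5%, 87.2% and 85.9%. The groups overlapped, at 88.0% ± 0.862 (SD, n = 3) in KO and 87.6% ± 1.81 in WT. Grin2d, which in the cerebellum is known from Golgi and other inhibitory cells, held 4.50% to 6.59% of the sum. Grin2b held 3.33% to 4.42% and Grin2a 2.57% to 3.47%. With lengths of the longest coding transcript, Grin2c held 84.3% to 88.3%.

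The comparison of KO with WT asks whether loss of Galnt17 altered the subunit genes. Not 1 of the 7 passed the edgeR quasi-likelihood test after Benjamini-Hochberg adjustment over 18237 genes, where 302 genes or 1.66% passed in either direction. At an unadjusted p under 0.05 the count in this fit was also 0, and DESeq2 and limma-voom called 0 members. Without WT replicate 1, 2 members had an unadjusted edgeR p under 0.05 (Grin2c and Grin3a), as did 5128 of all 18375 genes. Without WT replicate 2 there were 2 (Grin2b and Grin3a), and 2746 of all 18798 genes. Without the filter on low counts there was 1 (Grin3a), and 4566 of all 33485 genes. Groups did not separate for any member, while 23.7% of all tested genes had KO and WT values that did not overlap. The median log2 fold change (KO minus WT) was -0.03 over the members and -0.01 over all tested genes. A p above the threshold does not show equal levels, so each gene's 95% interval is given below.

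**Figure D2:**
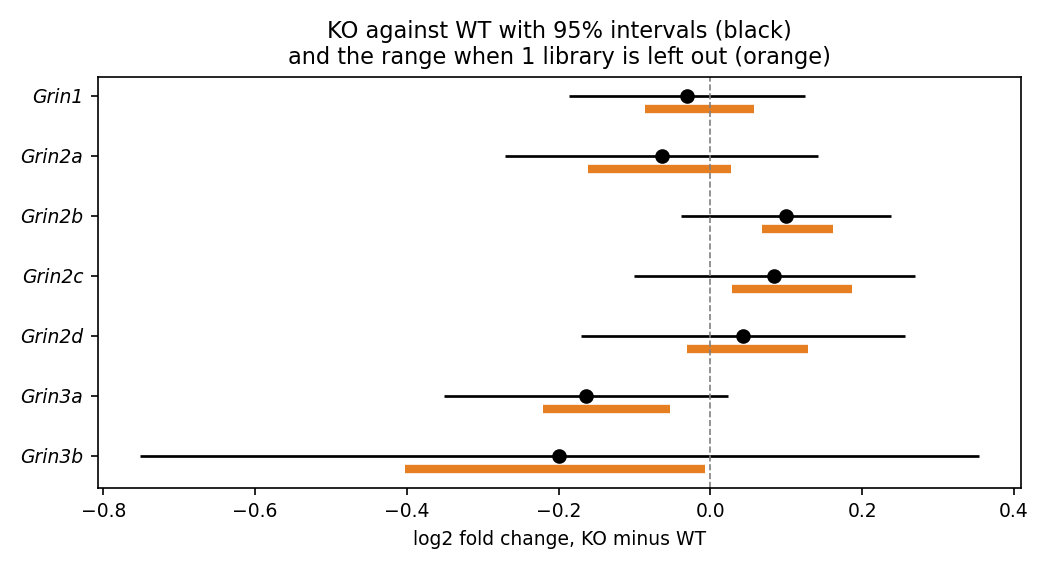
log2 fold change (KO minus WT) of each subunit gene from edgeR, with its 95% interval in black and the span of values when 1 of the 6 libraries is left out in orange. Every interval crosses 0; Grin1 has the narrowest reach below 0 of the 4 genes with lower KO means, and Grin3b, with 25 to 56 reads a library, has the widest interval.

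Grin1, the subunit that every NMDA receptor needs (ENSMUSG00000026959, chromosome 2, 25291181 to 25319187, minus strand), was at 166, 170.0 and 171 CPM in KO and at 159.8, 166 and 192 CPM in WT. The KO animals lay within the WT range, whose upper end was WT replicate 3 alone. Its fold was 0.979 (95% interval 0.879 to 1.09; log2 fold change -0.03, SE 0.07, edgeR adjusted p = 0.855). Without WT replicate 3 the log2 fold change was 0.06, on the other side of 0.

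Grin2b, the subunit of young granule cells (ENSMUSG00000030209, chromosome 6, 135713233 to 136173511, minus strand), was at 76.0, 71.2 and 74.7 CPM in KO and 66.1, 74.8 and 66.5 CPM in WT. Only WT replicate 2 reached the KO range, and the group means were 74.0 ± 2.50 and 69.1 ± 4.91 CPM (SD, n = 3). The fold of 1.07 had an interval of 0.974 to 1.18 (log2 fold change 0.10, SE 0.06, edgeR adjusted p = 0.430). Leaving out WT replicate 2 raised the log2 fold change to 0.16 (edgeR adjusted p = 0.251).

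Grin2c, the subunit of mature granule cells (ENSMUSG00000020734, chromosome 11, 115249169 to 115267243, minus strand), had the most reads of the family, 5096 to 9587 a library. It stood at 321, 329 and 357 CPM in KO and at 360.0, 299 and 290.3 CPM in WT. WT replicate 1 was the highest of all 6 animals and the other WT animals were the lowest, so the KO values fell inside the WT spread. The means were 336 ± 18.8 and 316 ± 37.98 CPM, with a fold of 1.06 (interval 0.932 to 1.21; log2 fold change 0.08, SE 0.08, edgeR adjusted p = 0.635). Without WT replicate 1 the log2 fold change was 0.19 (edgeR adjusted p = 0.0686), the smallest adjusted p of any member under any of the 13 alternatives. WT replicate 1 also differed from the other libraries in GC content: across genes, its deviation from the mean level had a Spearman correlation of -0.29 with GC, against -0.07 to 0.15 in the others. At 62% GC, the value of the longest Grin2c transcript, the fitted deviation of WT replicate 1 was -0.07 log2, below the mean level. With an offset for GC the Grin2c log2 fold change was 0.07 (edgeR adjusted p = 0.763).

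The ratio of Grin2c to Grin2b reads within a library needs no library size. In whole cerebellum, reads from cells other than granule cells can enter it. The ratio was 4.23, 4.62 and 4.78 in KO and 5.45, 3.997 and 4.37 in WT. All KO ratios lay between the lowest and highest WT ratios. Group means were 4.54 ± 0.283 in KO and 4.60 ± 0.753 in WT (SD, n = 3), a fold of 0.994 between the geometric means, and an exact permutation test gave p = 1 (two-sided; 0.1 is the smallest p that 3 against 3 allows). Per kilobase of exon the ratio was 22.4 ± 1.39 in KO and 22.7 ± 3.71 in WT, so at this age the Grin2c level was at least 19.7 times that of Grin2b in every animal. Without WT replicate 1 the log2 difference moved from -0.01 to 0.12, and without KO replicate 1 to 0.04.

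**Figure D3:**
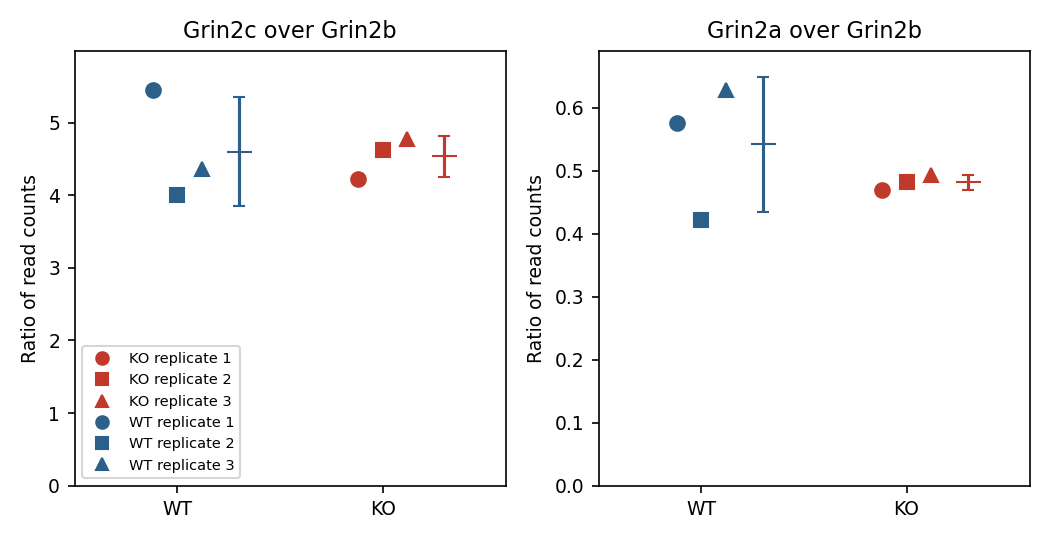
Ratios of read counts within each library, Grin2c over Grin2b and Grin2a over Grin2b, for the 3 WT and 3 KO animals; crosses with bars are means ± SD. The KO ratios sit inside the WT range in both panels, with SDs of 0.283 in KO and 0.753 in WT for Grin2c over Grin2b.

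Grin2a, the other GluN2 gene that rises as neurons mature (ENSMUSG00000059003, chromosome 16, 9567898 to 9995560, minus strand), had 1065, 798 and 742 reads in KO and 920, 538 and 859 in WT. Scaled for library size these were 34.3 to 36.8 CPM in KO and 31.6 to 41.8 CPM in WT, lowest in WT replicate 2 and highest in WT replicate 3. The KO animals were close together and inside the WT range, with a fold of 0.956 (interval 0.829 to 1.104; log2 fold change -0.06, SE 0.09, edgeR adjusted p = 0.753). Without WT replicate 3 the log2 fold change was 0.03. The ratio of Grin2a to Grin2b reads was 0.470, 0.482 and 0.493 in KO and 0.576, 0.422 and 0.628 in WT (exact permutation p = 0.4, adjusted over the 2 ratios 0.8). Its log2 difference of -0.15 was -0.32 without WT replicate 2, when both remaining WT ratios lay above all KO ratios, and -0.03 without WT replicate 3.

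Grin2d (ENSMUSG00000002771, chromosome 7, 45831883 to 45878378, minus strand) encodes the subunit with the slowest channel closure. It was at 27.6, 29.5 and 24.6 CPM in KO and 23.9, 26.2 and 29.4 CPM in WT, the same span in both groups. The fold was 1.03 (interval 0.888 to 1.19; log2 fold change 0.04, SE 0.10, edgeR adjusted p = 0.854). Leaving out KO replicate 2 gave a log2 fold change of -0.02, and leaving out WT replicate 1 gave -0.03.

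Of the glycine-binding GluN3 genes, Grin3a (ENSMUSG00000039579, chromosome 4, 49661611 to 49845744, minus strand) had the smallest p of the family. It was at 41.4, 43.7 and 41.9 CPM in KO and 44.6, 43.2 and 54.3 CPM in WT. WT replicate 3 stood above the other 5 animals, which ran from 41.4 to 44.6 CPM. The fold was 0.892 (interval 0.784 to 1.02; log2 fold change -0.16, SE 0.08, unadjusted p = 0.0790, adjusted p = 0.341 in edgeR). Without WT replicate 3, the library with the raised brainstem and midbrain markers, the log2 fold change was -0.05 (edgeR adjusted p = 0.719). Grin1, Grin2a and Grin3a were each highest in WT replicate 3, where 22.8% of all tested genes had their highest level. Summed markers of interneurons, unipolar brush cells, oligodendrocyte precursors, microglia, endothelium and choroid plexus were also highest there. Those of granule cells and their precursors, Purkinje cells, astrocytes, oligodendrocytes, meningeal fibroblasts and red blood cells were not. The part of any of these in the Grin3a value was not tested.

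Grin3b (ENSMUSG00000035745, chromosome 10, 79970715 to 79977190, plus strand), known mainly from motor neurons, had the fewest reads of the family. There were 56, 25 and 32 reads in KO and 42, 31 and 35 reads in WT, or 1.88, 1.07 and 1.59 CPM against 1.74, 1.82 and 1.70 CPM. KO replicates 1 and 2 held the highest and lowest values of all. The interval of the fold, 0.594 to 1.28 around 0.871, was the widest of the family (log2 fold change -0.20, SE 0.25, edgeR adjusted p = 0.713). On the sum of the strand columns, with 223 to 362 reads that include the overlap with Tmem259, the log2 fold change was -0.05 (SE 0.10, edgeR adjusted p = 0.812). Leaving out KO replicate 1 gave a log2 fold change of -0.40, and leaving out KO replicate 2 gave -0.01.

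The KO animals were more alike than the WT animals for 6 of the 7 members, as for 72.5% of all tested genes. The SD of log2 CPM was 0.03 in KO and 0.14 in WT for Grin1, 0.04 and 0.18 for Grin3a, and 0.05 and 0.21 for Grin2a. The exception was Grin3b, at 0.39 in KO and 0.05 in WT. The highest library exceeded the lowest by 1.15-fold for Grin2b, 1.204-fold for Grin1 and 1.24-fold for Grin2c.

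Grin2c ran in parallel with Gabra6, which encodes the alpha6 subunit of GABA-A receptors and is the other textbook gene of granule cell maturation. Gabra6 was at 598, 622 and 665 CPM in KO and 734, 574 and 542 CPM in WT (edgeR adjusted p = 0.917). The 6 libraries fell in the same order for both genes, from WT replicate 1 down to WT replicate 3, an order shared by 74 of 10423 other protein-coding genes with a mean of at least 10 CPM (0.710%). The ratio of Grin2c to Gabra6 reads stayed between 0.491 and 0.537. The 8 granule cell markers summed to 4744 to 4849 CPM in KO and 4322 to 4683 CPM in WT, and 0 of them passed the test in edgeR (1 higher at an unadjusted p under 0.05).

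**Figure D4:**
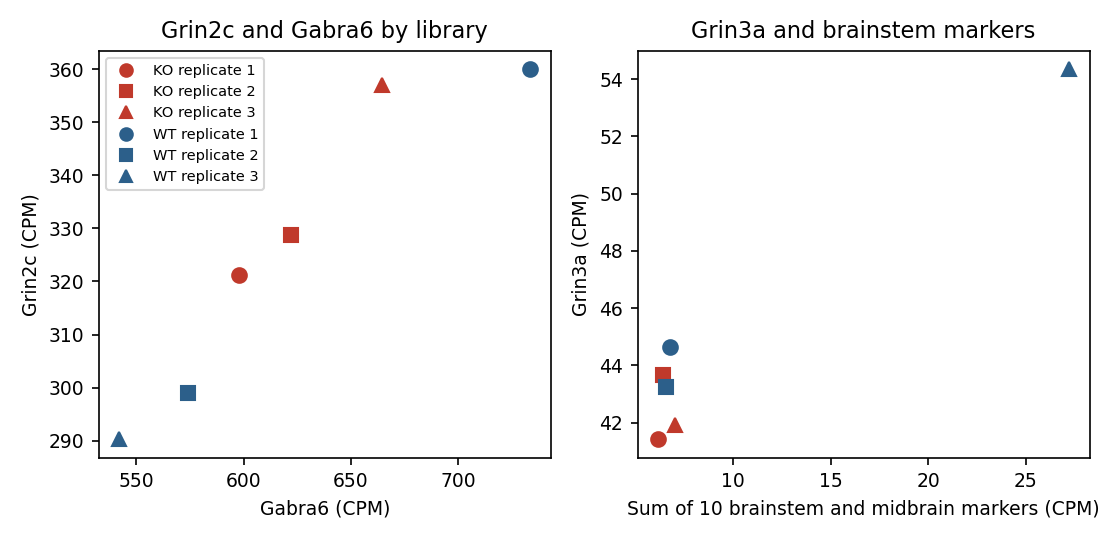
Left, Grin2c against Gabra6 in CPM for the 6 libraries; both are highest in WT replicate 1 and lowest in WT replicate 3. Right, Grin3a in CPM against the summed CPM of 10 brainstem and midbrain markers, where WT replicate 3 lies alone at 27.2 and 54.3 CPM. Markers of several other cell types, not plotted, also summed highest in WT replicate 3.

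The genes whose levels over the 6 libraries were most like those of Grin2b and Grin2c were of mixed kinds. Likeness was measured as the root mean square difference of log2 CPM after centring each gene on its own mean, over 10424 protein-coding genes. Nearest to Grin2b were Skor1 (0.00988), Zfp768 (0.0212) and the ribosomal protein gene Rpl34 (0.0212). Nearest to Grin2c were Nle1 (0.0205), Ndst2 (0.0225) and Rufy2 (0.0226), while Gabra6 was at 0.0461 with 0.988% of genes closer. At a wider distance of 0.1, 26.7% of the genes lay as near to Grin2b and 18.6% to Grin2c. By the same measure Grin2b lay 0.0815 and Grin2c 0.117 from a level equal in all libraries. A gene that did not vary would thus count as near to Grin2b at 0.1.

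Around the receptor, 8 lists of genes held 104 different genes, and all 104 were measured. Of these, 2 rose and 1 fell, or 2.88% against 1.66% of all genes tested, and 23 had an unadjusted p under 0.05 (22.1%, against 17.6% of all genes tested). Their median log2 fold change was -0.04. The lists were chosen with earlier results of these data known, so these shares are descriptions and not a test of the lists.

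**Figure D5:**
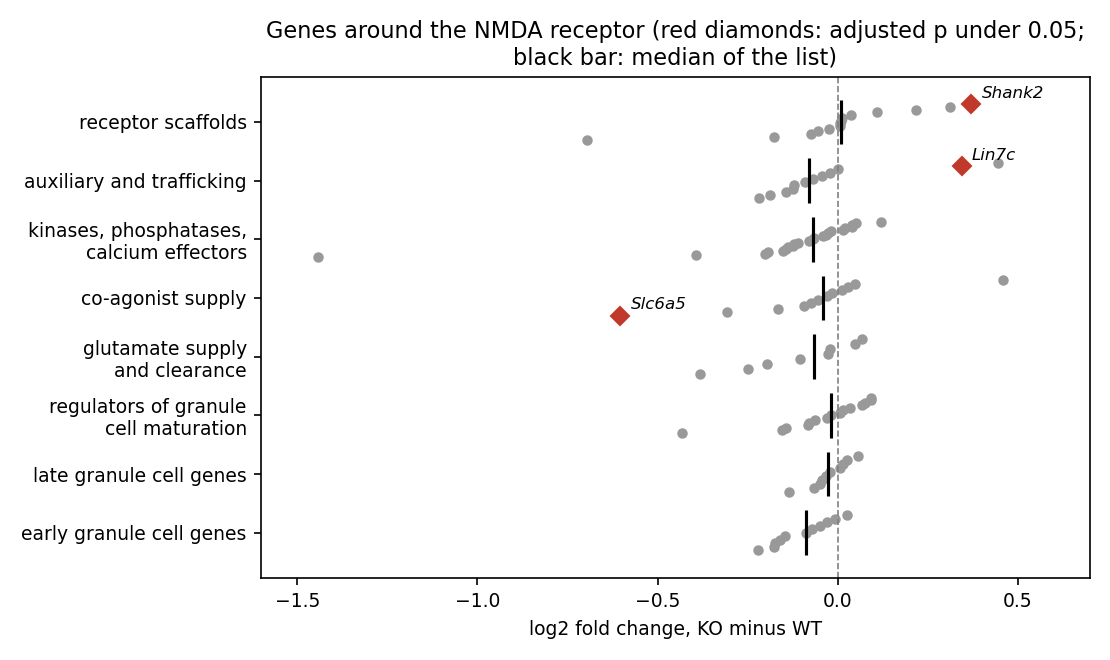
log2 fold change (KO minus WT) of every gene in 8 lists around the NMDA receptor; red diamonds passed the adjusted test, grey points did not, and black bars are list medians. Shank2 and Lin7c lie above 0 and Slc6a5 below, while list medians stay between -0.09 and 0.01.

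Among 14 scaffold genes, which anchor the receptor in the postsynaptic density, 1 rose, 0 fell and 13 did not pass. Shank2, a master scaffold of the density, was at 435, 416 and 413 CPM in KO and 349.7, 321 and 307 CPM in WT. Every KO animal lay above every WT animal, at a fold of 1.29 (log2 fold change 0.37, SE 0.06, edgeR adjusted p = 0.0181). The direct binding partner of GluN2 tails, PSD-95 (Dlg4), named after its values were seen, was at 355 ± 4.07 against 346 ± 0.0573 CPM (edgeR adjusted p = 0.737). The median of the list was 0.01. Without KO replicate 1, 2 or 3 or WT replicate 2, Shank2 lost its call (edgeR adjusted p = 0.0817 to 0.111). Over all genes these fits called 118, 81, 125 and 137, against 302 in the main fit. The Shank2 log2 fold change was 0.33 to 0.42 when any 1 library was left out. Purkinje cells are known to express Shank2, and their 8 markers summed to 6696 to 7077 CPM in KO and 5750 to 6019 CPM in WT, with 2 of 8 higher; the part of this in the Shank2 value was not tested.

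Among 12 auxiliary and trafficking genes 1 rose and 0 fell. Lin7c, part of the adaptor complex that links NMDA receptors to the motor protein Kif17, was at 220.5, 199.99 and 202 CPM in KO and 174.5, 164 and 151 CPM in WT, with no overlap (fold 1.27, log2 fold change 0.34, SE 0.07, edgeR adjusted p = 0.0342). Kif17, the kinesin that carries GluN2B vesicles along dendrites, did not pass, with 11.8 ± 0.627 CPM in KO and 8.62 ± 0.890 CPM in WT (edgeR adjusted p = 0.0894). The list's median was -0.08, with 9 of 12 below 0. The call for Lin7c was lost when KO replicate 1, 2 or 3 or WT replicate 2 was left out (edgeR adjusted p = 0.108 to 0.171). Its log2 fold change was 0.29 to 0.39 when any 1 library was left out.

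The 12 co-agonist genes held 1 that fell and 0 that rose. Slc6a5, the glycine transporter GlyT2 of glycinergic neurons, in the cerebellum chiefly Golgi cells, was at 24.3, 25.9 and 28.2 CPM in KO and 33.1, 44.1 and 41.9 CPM in WT. The groups did not overlap, and the fold was 0.658 (log2 fold change -0.60, SE 0.11, edgeR adjusted p = 0.0225). It passed without WT replicate 3 (edgeR adjusted p = 0.0383) and lost its call without KO replicate 1, 2 or 3 or WT replicate 2 (0.0568 to 0.127). Its log2 fold change was -0.72 to -0.52 when any 1 library was left out. The 8 interneuron markers, which include Slc6a5, summed to 682 to 731 CPM in KO and 679.8 to 815 CPM in WT, and Gad1 made up the largest part at means of 331 and 324 CPM. The list was split in direction, with 4 genes above 0 in log2 fold change and 4, Slc6a5 among them, below. Lgi2 and Grm2 of that list, named after their values were seen, also had lower KO means (79.1 and 13.9 CPM, with 97.1 and 17.2 CPM in WT) without passing (edgeR adjusted p = 0.223 and 0.261). Slc1a4, a transporter of serine and alanine, was at 53.4 ± 3.53 against 66.3 ± 8.88 CPM (edgeR adjusted p = 0.133).

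The lists without a call in edgeR were 23 kinases, phosphatases and calcium effectors, 8 genes of glutamate supply and clearance, 15 regulators of granule cell maturation, 10 late granule cell genes and 11 early granule cell genes. At an unadjusted p under 0.05 they held 5, 2, 1, 1 and 2 genes, all lower in KO. That is 11 of 66 different genes or 16.7%, where 17.6% of all genes tested were under 0.05 in either direction and 8.99% were so and lower in KO. Without WT replicate 1 edgeR called 3, 1, 1, 0 and 2 of them, in a fit that called 1921 of all 18375 genes tested. Without the filter on low counts it called 2, 1, 1, 0 and 1, and 1623 of all 33485 genes. Without WT replicate 3 it called 1, 0, 1, 0 and 0, and 343 of all 18808 genes. DESeq2 called 0, 0, 1, 0 and 0 (569 over all genes) and limma-voom 0 in each (312 over all genes). Prkaca, a catalytic subunit of protein kinase A, was at 164 ± 0.703 against 189 ± 18.2 CPM (edgeR adjusted p = 0.177). Rasgrf2, a calcium-dependent exchange factor for Ras, was at 28.6 CPM in WT replicate 3 and 3.92 to 5.34 CPM in the other 5 libraries (edgeR adjusted p = 0.229). Of the glutamate genes, Glul, the glutamine synthetase of astrocytes, was at 408 ± 22.2 against 468 ± 43.5 CPM (edgeR adjusted p = 0.215), and the neuronal transporter gene Slc1a1 at 24.5 ± 1.28 against 29.1 ± 4.06 CPM (edgeR adjusted p = 0.234).

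Among genes of granule cell maturation, Nrg1, a growth factor gene, was at 12.1, 11.7 and 10.4 CPM in KO and 16.4, 16.1 and 13.6 CPM in WT. Its groups did not overlap, but it did not pass in the main edgeR fit (fold 0.741, adjusted p = 0.0865) and was the 1 regulator that DESeq2 called. In edgeR it passed without WT replicate 3 (adjusted p = 0.0397) and without the filter on low counts (adjusted p = 0.0117). Ezh2, a histone methyltransferase gene, was at 29.3 ± 1.48 against 32.4 ± 1.91 CPM (edgeR adjusted p = 0.335). The late genes had a median log2 fold change of -0.03, with Cadps2 at 464 ± 13.9 against 509 ± 9.24 CPM (edgeR adjusted p = 0.242) and Cbln3 at 925 ± 25.1 against 888 ± 25.3 CPM (edgeR adjusted p = 0.646). The early genes had a median of -0.09 with 10 of 11 below 0. Gap43, a growth cone protein gene, was at 229 ± 5.94 against 259 ± 12.9 CPM (edgeR adjusted p = 0.145), and Stmn2 at 972 ± 21.3 against 1097 ± 100.1 CPM (edgeR adjusted p = 0.257). Grin2b, which also marks early granule cells, had a KO mean above its WT mean (log2 fold change 0.10, not called).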

How the data were processed

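RNA from single cerebella was sequenced as paired reads (Illumina TruSeq, per the labels' protocols). The authors deposited raw read counts for each gene from STAR 2.7.5a on GRCm38. The submitters' processing notes name these tools, along with edgeR 3.12, and the file names give Ensembl release 102. STAR's settings for counting: not given in the sources used here. The column counted without strand was used, since the first strand column held 49.9% to 50.0% of stranded counts. The lines for reads outside genes were left out. Unmapped reads made up 15.5%, 17.2% and 13.8% in KO and 6.52%, 9.80% and 10.0% in WT, without overlap between the groups. The part of this difference in the KO to WT comparison was not tested.

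Symbols, lengths and sequences came from GENCODE M21 (GRCm38, Ensembl release 96), which matched 55227 of 55487 identifiers. The KO to WT comparison used edgeR 4.0.16 (R 4.3.3, TMM scaling, filterByExpr with a minimum count of 10 and total of 15, two-sided quasi-likelihood F test, Benjamini-Hochberg over 18237 genes, threshold 0.05). Intervals are 95% and were derived from the F statistic. Their width rests on the spread between 3 animals a group, moderated by the spread of other genes (prior degrees of freedom 6.36). Ratios were compared by exact permutation over 20 splits. DESeq2 1.42.0, limma-voom (limma 3.58.1), other scalings, the filter, the strand columns, a GC offset (lowess, span 0.3) and leaving out each library were tried. The labels give no replicate numbers; those used here follow the order of deposit, only name the animals and pair none, so nothing was blocked. The edgeR, DESeq2 and limma-voom steps were checked on simulated counts.

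The members and lists were chosen with earlier results of these data known. Named genes were all members, Galnt17, Gabra6, and in each list every called gene or else the 2 with the smallest p (in lists with 1 call, that gene and the next). Some items under this rule, and the sequences of some members, are not reported here.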

Additional observations from a re-analysis of the deposited data

How the results depend on the processing

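The 7 members gave 91 fold changes over 13 alternatives, and 0 of them passed the threshold. Of these, 87 kept the direction of the main fit and 4 did not, all of them when 1 library was left out. The log2 fold change ran from -0.086 to 0.057 for Grin1, from -0.16 to 0.027 for Grin2a and from -0.031 to 0.13 for Grin2d over the 6 fits that leave out 1 library. Over the same omissions the log2 difference of the Grin2c to Grin2b ratio ran from -0.10 to 0.12. The cause was not tested. The number of genes called over the whole table did move, from 143 higher and 159 lower to 282 and 287 with DESeq2 and to 803 and 820 without the filter on low counts, where 33485 genes were tested. Leaving out 1 library gave 28 to 959 higher and 53 to 962 lower genes, with the most without WT replicate 1. No paired analysis was possible because the labels number no replicates. Grin3b had 25 to 56 reads a library in the unstranded column and 223 to 362 in the strand columns; no molecular identifiers are named, so reads may be PCR copies.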

Other observations

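Grin1os, the antisense gene that overlaps Grin1, was at 9.82, 11.99 and 10.9 CPM in KO and 10.5, 6.04 and 6.22 CPM in WT. It did not pass the test (log2 fold change 0.51, SE 0.20, edgeR adjusted p = 0.223), and 2 of 3 WT animals lay below all KO animals. These libraries keep no strand, so reads of Grin1 and Grin1os cannot be told apart in their overlap. Tmem259, which overlaps Grin3b, was at 162 ± 0.845 CPM in KO and 154 ± 1.46 CPM in WT (SD, n = 3, edgeR adjusted p = 0.433).

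Of the genes that make or remove D-serine and glycine, Dao, the D-amino acid oxidase that degrades D-serine, was at 20.5, 20.7 and 25.5 CPM in KO and 18.3, 12.4 and 17.4 CPM in WT. The groups did not overlap and the gene did not pass in edgeR (log2 fold change 0.46, SE 0.14, adjusted p = 0.139). Dao was named after its values were seen.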
